A study of Mus musculus with 30 samples.

Results

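Setdb2 and 4 genes of the Phf11 family (Phf11a, Phf11b, Phf11c and Phf11d) lie side by side on mouse chromosome 14, and their RNA was followed in 4 tissues of mice without myotubularin. The 5 genes are the members of the locus among 36103 genes in the table. The locus was selected on the lower levels of Setdb2 and Phf11c in knockout liver, so the liver values are given as a description, without a test. The other tissues, and the other Phf11 genes, were not used in that choice.

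The mice carried a constitutive deletion of Mtm1, the X-linked gene for the lipid phosphatase myotubularin, whose loss causes myotubular myopathy. All were males of the 129Pas strain aged 5 weeks, either Mtm1-/y or WT littermates, with no other allele or treatment. PolyA RNA was sequenced from gastrocnemius, a limb muscle (4 WT, 4 Mtm1-/y), diaphragm (4 WT, 3 Mtm1-/y), heart (4 WT, 4 Mtm1-/y) and liver (3 WT, 4 Mtm1-/y), with 24873817 to 44289343 counted reads in each of the 30 libraries. Every tissue of the mutant lacks Mtm1, so an effect within 1 tissue and an effect of the disease of the whole animal cannot be told apart.

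Mtm1 itself was lower in Mtm1-/y libraries of each tissue, with a log2FC of -2.07 ± 0.10 (SE) in gastrocnemius, -2.26 ± 0.17 in diaphragm, -2.59 ± 0.11 in heart and -1.60 ± 0.23 in liver. No Mtm1-/y library reached the Mtm1 level of a WT library of its tissue. The labelled tissues held their defining markers: 8 cardiomyocyte genes summed to at least 56746 CPM (counts scaled to the same library size) in every heart, and 10 hepatocyte genes to at least 145995 CPM in every liver. The same hepatocyte genes reached 41910 CPM in a WT diaphragm and 50824 CPM in an Mtm1-/y diaphragm, but stayed at or below 198 CPM in hearts and 108 CPM in gastrocnemius. The diaphragm libraries therefore stand apart. WT diaphragms 1, 2 and 4 and Mtm1-/y diaphragm 2 were rich in Alb (albumin), WT diaphragm 3 and Mtm1-/y diaphragms 1 and 4 were not, and every diaphragm value below, WT contrasts and joint fits included, comes from these libraries.

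Setdb2 encodes a SET domain protein with a methyl-CpG-binding domain, described as a methyltransferase of lysine 9 of histone H3. In immune cells it is known as an interferon-induced gene that restrains inflammatory genes, and in liver it has been linked to glucocorticoid signalling and to Insig2, a brake on lipid synthesis. The Phf11 genes encode proteins with a plant homeodomain (PHD) finger, a small zinc-binding fold, and the human SETDB2 and PHF11 genes lie together in a region linked to atopy.

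All 5 genes are protein-coding and run on the minus strand (mm10). Setdb2 spans chr14:59402009-59440884. Phf11c lies next to it, at chr14:59380833-59395381, with 6.628 kb between the end of Setdb2 and the start of Phf11c. Phf11d (chr14:59347407-59365470), Phf11b (chr14:59320964-59341351) and Phf11a (chr14:59276913-59297522) follow in that order. On the other side, Cab39l runs on the plus strand, and its start lies 88 bases from the start of Setdb2. Beyond Phf11a lies Gm6904, 16.696 kb away, which had at most 4 counts in any library and 0 in 18 of 30. The nearest gene there that passed the filter on low counts is Rcbtb1, 39.648 kb from Phf11a. Setdb2 overlapped a single annotated gene, the pseudogene Gm16301 on its own strand.

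The Phf11 genes share stretches of sequence, Phf11a and Phf11b the most, which bears on the counts. Of the 50-base stretches in their annotated exons, the length of the reads, 35.2% in Phf11a and 47.0% in Phf11b also occur in another gene, against 11.8% in Phf11c, 8.09% in Phf11d and 0% in Setdb2. Only reads with a unique position were counted, so reads from those stretches were lost and the levels of Phf11a and Phf11b are the least certain. The counts of Setdb2 share no 50-base stretch with any Phf11 gene.

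The starts of the genes differ in sequence, and the 250 bases before the RefSeq start (GRCm38.p6, minus strand, written 5′ to 3′) are shown for Setdb2 (chr14:59440881-59441130) and Phf11c (chr14:59393513-59393762), the genes that define the locus in liver, and for Phf11d (chr14:59365491-59365740), a close neighbour with a different pattern, and Phf11a (chr14:59297523-59297772). The gene spans given above come from another annotation (GENCODE), in which Phf11c reaches chr14:59395381, so the Phf11c window lies inside that span. It is not the sequence before the start used for the 6.628 kb gap. Capitals mark the motif letters found.
Setdb2: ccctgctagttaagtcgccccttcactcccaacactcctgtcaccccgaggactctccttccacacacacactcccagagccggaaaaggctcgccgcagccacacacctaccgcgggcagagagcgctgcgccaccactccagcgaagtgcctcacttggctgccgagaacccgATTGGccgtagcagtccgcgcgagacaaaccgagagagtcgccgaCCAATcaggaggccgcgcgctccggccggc
Phf11c: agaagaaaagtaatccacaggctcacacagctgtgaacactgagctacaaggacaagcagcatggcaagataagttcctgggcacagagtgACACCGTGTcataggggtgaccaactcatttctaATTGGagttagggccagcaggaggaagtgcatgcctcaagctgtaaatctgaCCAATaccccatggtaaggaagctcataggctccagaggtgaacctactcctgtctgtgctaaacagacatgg
Phf11d: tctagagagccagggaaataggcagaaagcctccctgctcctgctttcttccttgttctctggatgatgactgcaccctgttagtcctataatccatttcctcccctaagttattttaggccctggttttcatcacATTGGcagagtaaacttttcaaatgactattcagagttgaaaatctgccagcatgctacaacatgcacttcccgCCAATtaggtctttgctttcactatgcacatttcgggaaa
Phf11a: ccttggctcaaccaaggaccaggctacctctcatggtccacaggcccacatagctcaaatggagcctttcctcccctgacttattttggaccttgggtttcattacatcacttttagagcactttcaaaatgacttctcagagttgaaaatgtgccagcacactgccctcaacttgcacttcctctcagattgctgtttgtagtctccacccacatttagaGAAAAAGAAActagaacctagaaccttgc

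The Setdb2 window is rich in G and C (65.6%, with 24 CpG pairs) and reaches across the 88-base gap to Cab39l. The Phf11c window holds 49.2% G and C and 1 CpG pair, the Phf11d window 44% and 2, and the Phf11a window 46% and 0. The median of 32851 RefSeq promoter windows of that length was 52.4% with 6 CpG pairs. The Setdb2 and Phf11c windows shared 45.4% of aligned bases, while those of Phf11a and Phf11b, which is not printed, shared 83.8%.

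Motif letters were searched on both strands, with motifs picked after the sequences had been seen. CCAAT, in capitals in Setdb2, Phf11c and Phf11d (as ATTGG on the other strand), occurs in 33.8% of all windows. The interferon-stimulated response element GAAANNGAAA was found in Phf11a (29 to 20 bases before the start) and Phf11b (50 to 41 bases), and in 2.98% of all windows. The glucocorticoid response element core ACANNNTGT was found once among the members, in Phf11c 159 to 151 bases before its RefSeq start, and in 5.84% of all windows. That position lies inside the Phf11c gene span given above. GGAANNGAAA (2.30% of windows) and CACGTG (6.02%) were found in none of the 5 windows. These matches are letters in a window, not measured binding sites.

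Levels are given as CPM after scaling of library composition by TMM (trimmed mean of M values). Setdb2 was highest in WT liver, with 26.8, 51.2 and 52.2 CPM in the 3 libraries. WT heart held 10.1, 11.6, 14.5 and 11 CPM, WT diaphragm 8.77, 8.03, 4.82 and 9.99 CPM, and WT gastrocnemius 5.23, 4.71, 5.90 and 5.11 CPM. The means were 43.4 ± 14.4 (SD, n = 3) in liver, 11.8 ± 1.90 (n = 4) in heart, 7.90 ± 2.21 (n = 4) in diaphragm and 5.24 ± 0.49 (n = 4) in gastrocnemius. Liver stood clear of the muscles, whereas the ranges of diaphragm and gastrocnemius overlapped.

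Phf11c had the steepest difference between tissues. WT liver libraries held 24.3, 55.3 and 55.9 CPM, WT diaphragm 5.84, 5.51, 1.34 and 7.59 CPM, WT heart 1.77, 2.20, 2.31 and 1.71 CPM, and WT gastrocnemius 1.42, 1.16, 0.940 and 1.22 CPM. The same WT liver, number 1, was lowest for Setdb2 and for Phf11c, and WT diaphragm 3 was far below the other WT diaphragms for Phf11c. Per kb of exon, Phf11c (13.1 ± 5.23 CPM per kb) and Setdb2 (10.7 ± 3.55 CPM per kb) were at like levels in WT liver, while in WT heart Setdb2 was at 2.92 ± 0.47 CPM per kb and Phf11c at 0.577 ± 0.087 CPM per kb.

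Phf11d had another order of tissues. It was highest in WT heart, with 8.10, 7.49, 7.19 and 5.91 CPM, followed by WT diaphragm (4.73, 5.51, 4.82 and 4.87 CPM). WT gastrocnemius (2.51, 2.48, 3.24 and 2.38 CPM) and WT liver (1.98, 2.82 and 2.56 CPM) were lowest, and their ranges overlapped. Phf11b ranged from 0.070 to 0.766 CPM in WT libraries, lowest in gastrocnemius. Phf11a had at most 8 counts in any library and 0 counts in all 4 WT gastrocnemius libraries, where 3 counts is the most that a count of 0 allows in a library, for counting error only. It passed the filter on low counts in no edgeR fit, and Phf11b passed in diaphragm, heart, liver and the joint fit of the muscles.

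**Figure D1:**
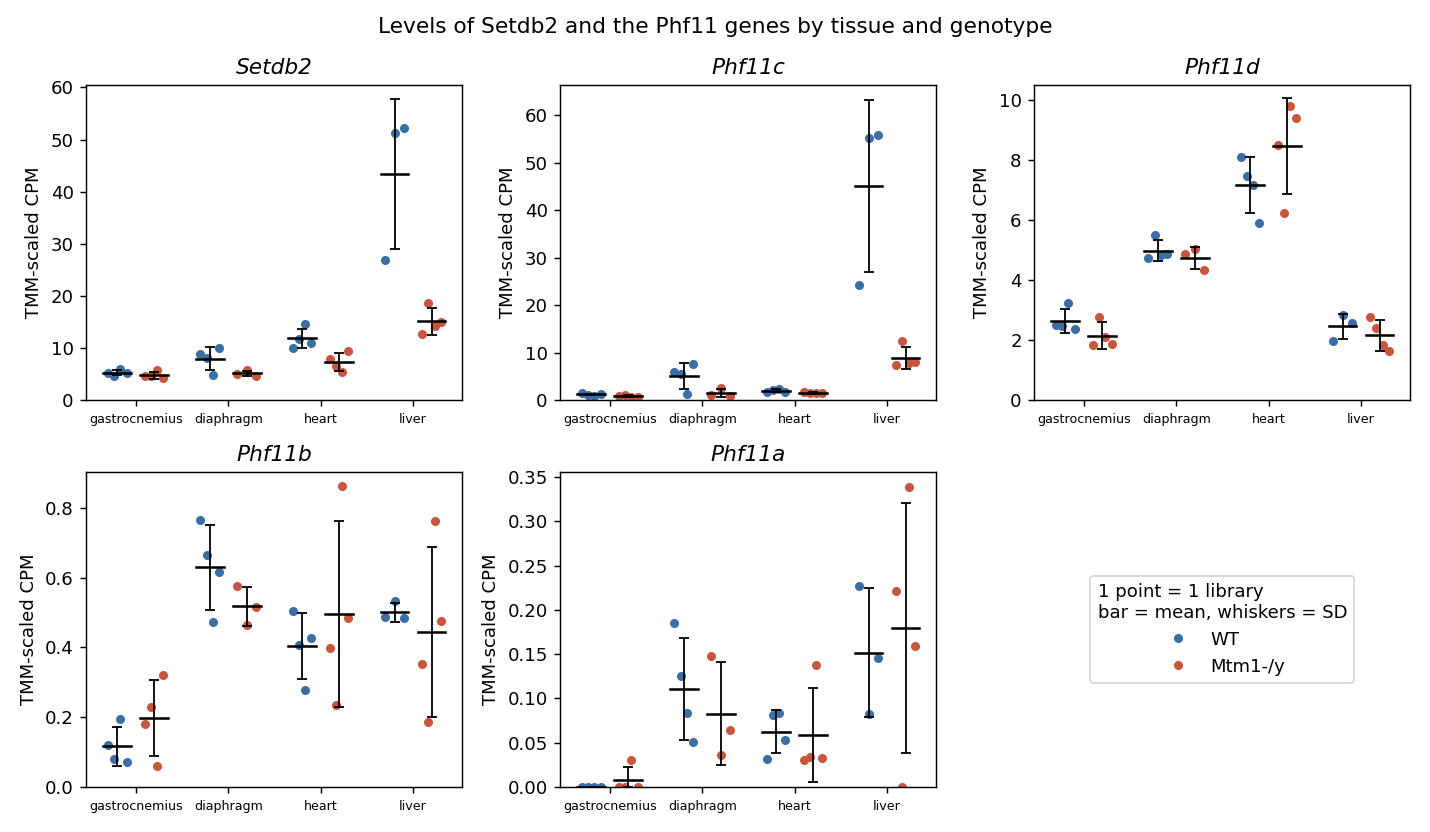
TMM-scaled CPM (y axes, linear) of each gene in each library by tissue (x axes), WT in blue and Mtm1-/y in red. Bars are means and whiskers SD (cut at 0), and Setdb2 and Phf11c stand highest in WT liver, at means of 43.4 and 45.2 CPM, while Phf11d stands highest in heart.

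In liver, Setdb2 held 12.6, 18.6, 14.2 and 15.1 CPM in the Mtm1-/y libraries (mean 15.1 ± 2.53, n = 4), all below the WT libraries. The log2FC was -1.53 ± 0.23 (SE). Phf11c held 7.47, 12.4, 7.89 and 8.01 CPM in Mtm1-/y livers (mean 8.95 ± 2.34, n = 4) against a WT mean of 45.2 ± 18.1 (n = 3), with a log2FC of -2.34 ± 0.30. These values chose the locus and carry no test here. Over all 14305 genes tested in liver, 3.33% had every Mtm1-/y library below every WT library, and 0% (0 genes) passed an adjusted p under 0.05 with an absolute log2FC over 1, against 606 genes at an unadjusted p under 0.05 and 12 called by DESeq2. The deleted gene itself, Mtm1, was not called there by edgeR (log2FC -1.60, adjusted p = 0.365). A count of 0 called in liver therefore does not show that no gene changed. Fewer cells of a type and less RNA per cell cannot be told apart in these bulk samples.

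Macrophage and B cell markers mostly had a log2FC below 0 in liver, but their sums overlapped between genotypes. Of 10 macrophage markers, 9 had a log2FC below 0 (median -0.57), and they summed to 261 to 283 CPM in WT livers and to 288, 56.8, 188 and 210 CPM in Mtm1-/y livers 1 to 4. All 6 B cell markers tested were below 0 (median -0.61), at 7.78 to 14 CPM in WT and 2.34 to 9.28 CPM in Mtm1-/y livers. Mtm1-/y liver 2 was the lowest library in both lists, and it held the highest Setdb2 and Phf11c of its group. The hepatocyte list had a median of 0.02, while all 5 cardiomyocyte markers tested (median 0.98) and 7 of 8 skeletal muscle fibre markers (median 0.49) were above 0. The part of these cell types in the Setdb2 and Phf11c values was not tested.

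The other members gave a different picture in the same livers. Phf11d, which lies 15.363 kb beyond Phf11c, held 2.78, 2.41, 1.82 and 1.65 CPM in Mtm1-/y livers, and its log2FC was -0.18 ± 0.27. Phf11b had a log2FC of -0.17 ± 0.46, on 4 to 18 counts per library. The genes just inside the choice thus stood at -1.53 and below, and those just outside at -0.18 and above. WT liver 1 lay nearest to the Mtm1-/y group, and without it the Setdb2 log2FC was -1.78.

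Phf11c was lower relative to Setdb2 in Mtm1-/y livers, a ratio taken within each library that no scaling can move. Per 100 Setdb2 counts, WT livers held 90.6, 108 and 107 Phf11c counts, and Mtm1-/y livers held 59.3, 66.9, 55.5 and 53.2. This follows from the values that chose the locus. In the tissues that were not used, hearts held 15.5 to 18.9 (WT) and 15.8 to 26.8 (Mtm1-/y), and gastrocnemius held 15.9 to 27.2 (WT) and 11.6 to 24.5 (Mtm1-/y), so the genotypes overlapped in both.

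**Figure D2:**
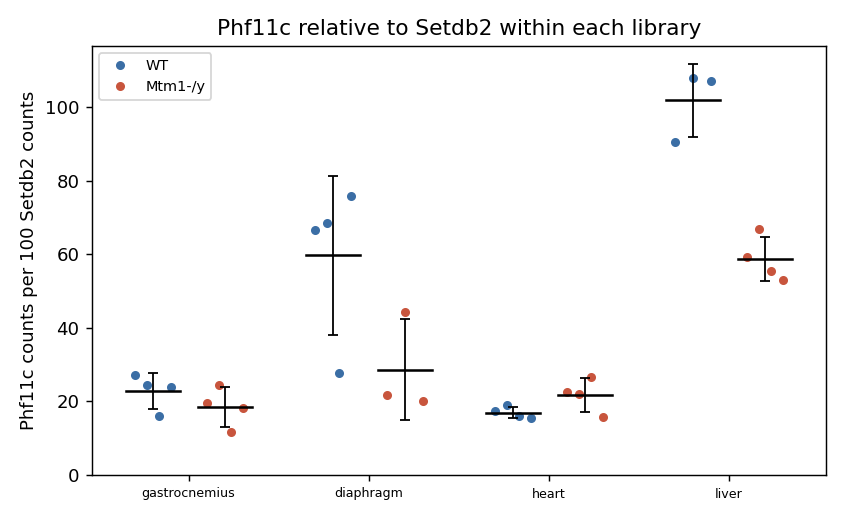
Phf11c counts per 100 Setdb2 counts (y axis) in each library, by tissue and genotype, with means and SD. WT livers lie at 90.6 to 108 and Mtm1-/y livers at 53.2 to 66.9, hearts and gastrocnemius at or below 27.2, and diaphragm libraries spread from 20 to 75.9.

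Heart was the other tissue in which Setdb2 did not overlap between genotypes. Mtm1-/y hearts held 7.85, 6.47, 5.43 and 9.38 CPM (mean 7.28 ± 1.72, n = 4), below the lowest WT heart at 10.1 CPM. Of the genes tested in heart, 2.03% showed the same order. The log2FC was -0.71 ± 0.18 (SE), with an adjusted p of 0.546 by edgeR and 0.0693 by DESeq2, so the difference did not pass in heart alone. Phf11c held 1.77, 1.42, 1.45 and 1.48 CPM in Mtm1-/y hearts, with a log2FC of -0.39 ± 0.17 (adjusted p = 0.546), and its ranges overlapped. Phf11d had a log2FC of 0.23 ± 0.16 (adjusted p = 0.583) and Phf11b of 0.28 ± 0.39 (adjusted p = 0.772). None of the 4 members tested was called in heart, where 0.00656% of genes were called. At an unadjusted p under 0.05 there was 1 member, beside 1353 of 15238 genes, and DESeq2 called 0 members. White adipocyte markers, 7 genes, summed to 311 to 666 CPM in WT hearts and 241 to 292 CPM in Mtm1-/y hearts, and their part in the Setdb2 difference was not tested. The hepatocyte genes summed to 13.0 to 198 CPM in WT hearts and 58.3 to 167 CPM in Mtm1-/y hearts, so the sums overlapped. Their median log2FC was 1.93, with 6 of the 10 above 0 and 4 below. Alb, the gene followed in diaphragm below, was higher in every Mtm1-/y heart (23.9 to 86.4 CPM) than in any WT heart (0.814 to 21.1 CPM). Of the genes tested in heart, 2.15% showed that order, and the part of Alb was not tested either.

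In gastrocnemius the members differed little. Setdb2 held 4.62, 4.56, 5.69 and 4.15 CPM in Mtm1-/y libraries, overlapping the WT range, with a log2FC of -0.13 ± 0.14 (adjusted p = 0.510) and an interval of 2 SE from -0.40 to 0.14. Phf11c had a log2FC of -0.45 ± 0.23 (adjusted p = 0.171) and Phf11d of -0.30 ± 0.19 (adjusted p = 0.274). This was the muscle in which 6.63% of all genes were called, and none of the 3 members tested was among them. No member had an unadjusted p under 0.05 there, where 6427 of 15456 genes did, and DESeq2 called 0 members. Every Mtm1-/y library lay below every WT library for 16.7% of genes, and for none of these members. Composition scaling matters here, since the mean TMM factors of the genotypes differed and plain CPM puts a gastrocnemius log2FC 0.35 higher. In plain CPM the Mtm1-/y mean was then above the WT mean for Setdb2 (4.95 against 4.29) and for Phf11d (2.23 against 2.17). In the other tissues that shift was -0.06 to 0.06.

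In diaphragm, the libraries rich in albumin RNA had the highest Phf11c within each genotype. Phf11c held 1.09, 2.53 and 0.943 CPM in the Mtm1-/y libraries 1, 2 and 4, and the log2FC was -1.72 ± 0.63 (adjusted p = 0.406 by edgeR, 0.0841 by DESeq2). Before TMM scaling, the 3 WT diaphragms with high Alb (26742, 16855 and 19826 CPM in libraries 1, 2 and 4) held 6.86, 5.98 and 9.09 CPM of Phf11c. WT diaphragm 3, with 284 CPM of Alb, held 1.51 CPM of Phf11c, next to Mtm1-/y diaphragms 1 and 4 at 1.37 and 1.15 CPM, whose Alb was 1816 and 583 CPM. The Mtm1-/y library with the highest Alb, number 2 at 31876 CPM, also had the highest Phf11c of its group (2.85 CPM).

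Alb levels were set against those of liver. They came to 27.7%, 17.4%, 0.293% and 20.5% of the mean of WT livers in WT diaphragms 1 to 4, and 1.63%, 28.7% and 0.524% of the mean of Mtm1-/y livers in Mtm1-/y diaphragms 1, 2 and 4. The liver means of Phf11c and Setdb2 are among the values that chose the locus, so what follows is a description, and the part of liver RNA in the diaphragm values was not tested. The same share of the liver level of Phf11c comes to 9.93, 6.26 and 7.36 CPM in WT diaphragms 1, 2 and 4, beside 6.86, 5.98 and 9.09 CPM measured. In Mtm1-/y diaphragm 2 it comes to 1.97 CPM beside 2.85 CPM measured, and in the 3 remaining libraries to at most 0.112 CPM.

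Setdb2 in diaphragm was highest in the 3 WT libraries rich in Alb, but hardly differed among the Mtm1-/y libraries. Mtm1-/y diaphragms held 5.07, 5.71 and 4.72 CPM, and the WT library with little Alb held 4.82 CPM, within that range. The log2FC was -0.59 ± 0.25 (adjusted p = 0.461). In plain CPM, the share of liver Setdb2 read from Alb comes to 9.55, 6.02 and 7.08 CPM in WT diaphragms 1, 2 and 4, beside 10.3, 8.72 and 12.0 CPM measured and 5.44 CPM in WT diaphragm 3. In Mtm1-/y diaphragm 2 it comes to 3.33 CPM, yet that library measured 6.43 CPM, close to the 6.35 and 5.73 CPM of Mtm1-/y diaphragms 1 and 4, which hold little Alb. With the hepatocyte marker score of each library as a covariate, a fit added after the data had been seen, the log2FC was -0.43 for Setdb2 (adjusted p = 0.282) and -1.28 ± 0.23 for Phf11c (adjusted p = 0.0853). None of the 4 members tested was called in diaphragm (0.0119% of genes called), and DESeq2 called 0. At an unadjusted p under 0.05 there were 2 members, beside 1806 of 16796 genes. No member had all Mtm1-/y libraries below WT, an order seen in 5.54% of genes. Phf11d held 4.88, 5.03 and 4.33 CPM in Mtm1-/y diaphragms (log2FC -0.05 ± 0.12, adjusted p = 0.959), and Phf11b had a log2FC of -0.26 ± 0.24 (adjusted p = 0.787).

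**Figure D3:**
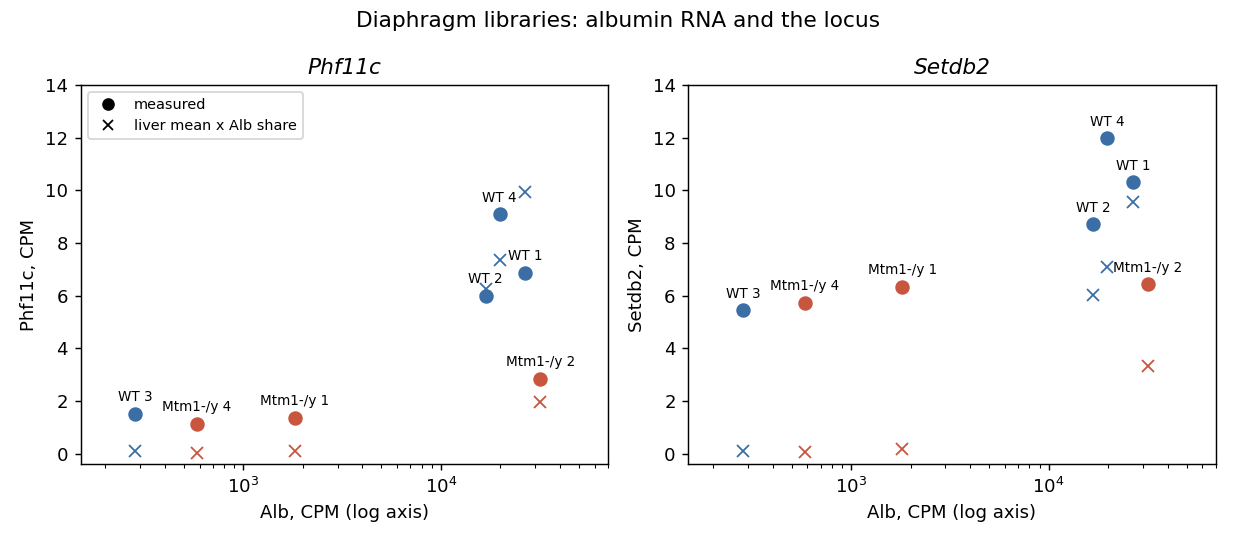
Phf11c and Setdb2 (y axes, plain CPM) against Alb (x axes, plain CPM, log axis) in the 7 diaphragm libraries, WT in blue and Mtm1-/y in red, labelled by replicate. Circles are measured levels and crosses the liver mean of the genotype multiplied by the Alb share, so the circles of WT 1, 2 and 4 lie near their crosses for Phf11c and WT 3 (1.51 CPM) lies with Mtm1-/y 1 and 4.

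Averaged over the 3 striated muscles in a joint fit of 23 libraries, Setdb2 and Phf11c were lower in Mtm1-/y mice and Phf11d was not. For Phf11c this depends on the fit, as given below. That mean takes in the diaphragm libraries, where those rich in Alb were mostly WT, and the part of liver RNA in it was not tested. Setdb2 had a mean log2FC of -0.50 ± 0.12 (SE, adjusted p = 0.00883 by edgeR) and Phf11c of -0.88 ± 0.23 (adjusted p = 0.0160). Thus 2 of the 4 members tested were lower at an adjusted p under 0.05, as were 5.25% of all genes. Both stayed under the absolute log2FC of 1 that the study asks for, so 0 members were called at both thresholds, where 1.49% of genes were called, and DESeq2 also called 0 (adjusted p = 0.000897 for Setdb2 and 0.00302 for Phf11c). Phf11d had a mean log2FC of -0.05 ± 0.09 (adjusted p = 0.784), with an interval of 2 SE from -0.24 to 0.13. Phf11b had a mean log2FC of 0.24 ± 0.24 (adjusted p = 0.601).

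The Phf11c value depends on the fit. With 1 estimated correlation (0.0447) between libraries of different muscles that share genotype and number, fitted with limma voom and added after the data had been seen, Setdb2 had a mean log2FC of -0.50 ± 0.13 (adjusted p = 0.0215) and Phf11c of -0.88 ± 0.31 (adjusted p = 0.0885), so Phf11c no longer passed. In gastrocnemius and heart alone, a fit added after the data had been seen, Setdb2 had a mean log2FC of -0.42 ± 0.11 (adjusted p = 0.0322) and Phf11c of -0.42 ± 0.14 (adjusted p = 0.0712), where 4.57% of genes were lower at an adjusted p under 0.05. Without Mtm1-/y diaphragm 2, the only library of its group rich in Alb, the mean log2FC of Phf11c over the 3 muscles was -1.07 (adjusted p = 0.00248), past both thresholds. That fit keeps the WT diaphragms rich in Alb, so the genotypes differ more in Alb there. The part of liver RNA in this change was not tested. The Setdb2 value ranged from -0.55 to -0.45 over the 23 fits that each left out 1 library, with adjusted p from 0.00114 to 0.0227.

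Whether the genotype effect differed between muscles was tested for each pair of them, and no member was called. The background was 5.52% of genes for heart against gastrocnemius, 0.249% for heart against diaphragm and 0.41% for gastrocnemius against diaphragm. Each of the 3 tests had 1 member at an unadjusted p under 0.05, and DESeq2 called 0 in each. In the same order, 5293, 2333 and 2634 of 18047 genes had an unadjusted p under 0.05. For Setdb2, the effect in heart minus that in gastrocnemius was -0.52 ± 0.28 (log2, adjusted p = 0.215), with an interval of 2 SE from -1.07 to 0.03. For Phf11d the same difference was 0.59 ± 0.22 (adjusted p = 0.0832). Both rest on 1 spread per gene shared by the 3 muscles, diaphragm included, where the common coefficient of variation was 0.28. In fits of 1 tissue it was 0.17 in gastrocnemius, 0.21 in heart and 0.39 in diaphragm. For Phf11c, the effect in heart minus that in diaphragm was 1.38 ± 0.55 (adjusted p = 0.287), and in gastrocnemius minus diaphragm 1.27 ± 0.56 (adjusted p = 0.298). Leaving out 1 diaphragm library changed these calls. Without Mtm1-/y diaphragm 2 the heart difference was 1.96 (adjusted p = 0.0488), and without WT diaphragm 3 the gastrocnemius difference was 1.57 (adjusted p = 0.0375). The former fit leaves no Mtm1-/y diaphragm rich in Alb, and the latter no WT diaphragm low in Alb. The part of liver RNA in these changes was not tested.

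**Figure D4:**
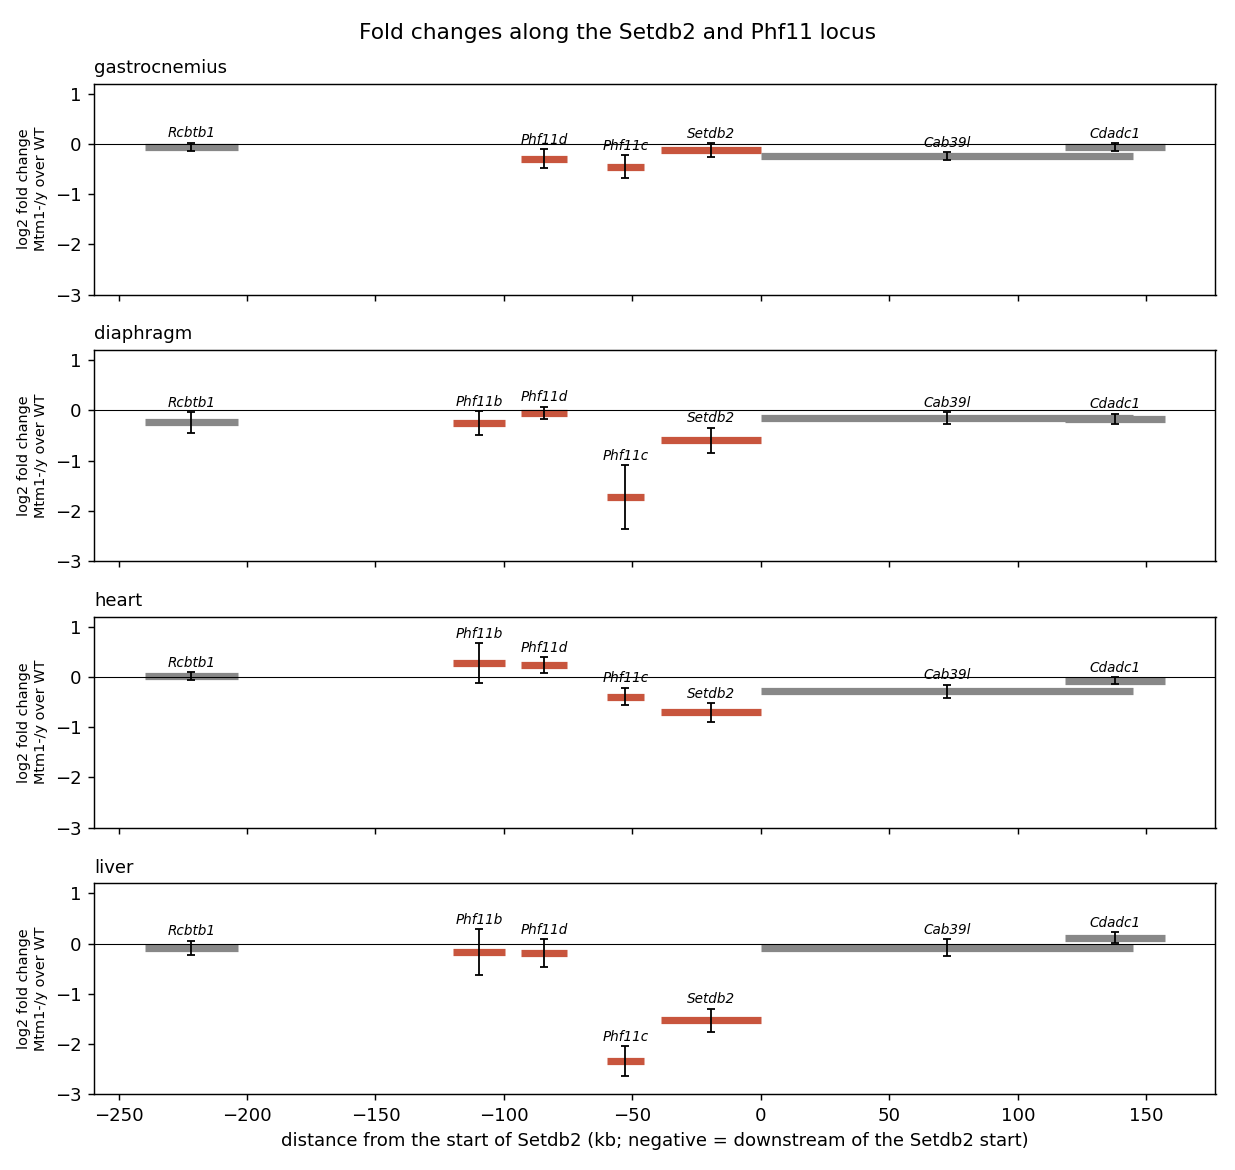
Log2 fold change of Mtm1-/y over WT (y axes, with SE) for each tested gene drawn to scale along the locus (x axis, kb from the Setdb2 start), members in red and neighbours in grey, 1 panel per tissue. Setdb2 (-1.53) and Phf11c (-2.34) lie below their neighbours in liver, and Cab39l and Rcbtb1 lie near 0 there (both -0.08).

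Among WT muscles, the members fell into different orders. Setdb2 was higher in heart than in gastrocnemius (log2FC 1.14 ± 0.20, adjusted p = 4.3e-05), as was Phf11d (1.4 ± 0.16, adjusted p = 2.24e-07). Phf11b was called too (1.71 ± 0.44), but it held only 2 to 6 counts in WT gastrocnemius libraries. It passed the low-count filter of the joint fit through heart and diaphragm, where it is higher, so its calls against gastrocnemius are no test. Phf11c was not called there (0.72 ± 0.38, adjusted p = 0.109). The 3 of 4 members called, Phf11b included, compare with 32.2% of genes called, and 61.5% at the adjusted p alone. Between heart and diaphragm, Phf11c was called, lower in heart (-1.35 ± 0.37, adjusted p = 0.00466), where 26.5% of genes were called. Setdb2 (0.57 ± 0.19, adjusted p = 0.0177) and Phf11d (0.52 ± 0.15, adjusted p = 0.00802) were higher in heart by less than the fold threshold, and 51.8% of genes passed the adjusted p alone.

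Gastrocnemius had the lowest mean of the 3 WT muscles for each tested member. Against diaphragm, Phf11c (-2.07 ± 0.38, adjusted p = 0.000148) was called lower in gastrocnemius, where 26.2% of genes were called. Phf11b (-2.36 ± 0.43) was called too, with the same limit of few WT gastrocnemius counts and a filter passed through the other muscles. Phf11d (-0.88 ± 0.16, adjusted p = 0.000105) and Setdb2 (-0.57 ± 0.19, adjusted p = 0.0185) passed the adjusted p alone, as did 54% of genes. The Phf11c differences from diaphragm rest on the 3 WT diaphragms with high Alb, since WT diaphragm 3 (1.34 CPM) was lower than every WT heart and within the WT gastrocnemius range. For Setdb2, WT diaphragm 3 (4.82 CPM) also lay within the WT gastrocnemius range. Leaving out 1 library, the adjusted p of Setdb2 rose to 0.0707 for heart against diaphragm (without WT heart 3). For gastrocnemius against diaphragm it rose to 0.0820 without WT diaphragm 4, to 0.0539 without WT diaphragm 1 and to 0.0522 without WT gastrocnemius 2.

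No gene around the locus was called between genotypes. Within 1 Mb on either side, 21 annotated neighbours were in the table and 8 or 9 passed the low-count filter in a tissue. The count called was 0 in each tissue and in the joint fit, and DESeq2 also called 0 in each of these. At an unadjusted p under 0.05 there were 4 neighbours in gastrocnemius, 0 in diaphragm, 2 in heart, 0 in liver and 3 in the joint fit. The counts over all genes, in the same order, were 6427 of 15456, 1806 of 16796, 1353 of 15238, 606 of 14305 and 4606 of 18047. Cab39l, which encodes a scaffold of the kinase LKB1 and starts beside Setdb2, had a log2FC of -0.08 ± 0.17 (adjusted p = 0.973) in liver, -0.28 ± 0.13 (adjusted p = 0.546) in heart and -0.24 ± 0.07 (adjusted p = 0.0343) in gastrocnemius. At the adjusted p alone, 3 of 9 neighbours were lower in gastrocnemius (14.9% of all genes were). Over the 3 muscles Cab39l had a mean log2FC of -0.24 ± 0.07 (adjusted p = 0.0241). In heart, Shisa2 had a log2FC of -1.92 ± 0.63 (adjusted p = 0.546) and the predicted gene Gm9022 of 1.04 ± 0.43 (adjusted p = 0.546), both larger in size than that of Setdb2. For the effect in heart minus that in gastrocnemius, edgeR called 1 neighbour, Gm9022 (1.65 ± 0.44, adjusted p = 0.0179), beside the 5.52% of all genes called there, and DESeq2 called Shisa2 (-1.64 ± 0.60, adjusted p = 0.0402) as well. DESeq2 also called Shisa2 for heart minus diaphragm (-2.23 ± 0.62, adjusted p = 0.0248). Rcbtb1, on the far side of the Phf11 genes, had a log2FC of -0.08 ± 0.15 in liver (adjusted p = 0.972) and 0.01 ± 0.08 in heart (adjusted p = 0.945).

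Genes of the pathways in which Setdb2 is known were counted from lists. Over all genes, 6.63% were called in gastrocnemius, 0.0119% in diaphragm, 0.00656% in heart and 0% in liver, so in the last 3 tissues 0 calls in a list is the background. The liver fit did not call Mtm1 itself. At an unadjusted p under 0.05 there were 6427 of 15456 genes in gastrocnemius, 1806 of 16796 in diaphragm and 1353 of 15238 in heart. There were 606 of 14305 in liver and 4606 of 18047 in the joint fit, as background for all lists. No gene of 6 lists was called in diaphragm, heart or liver, where 12, 25 and 12 entries had an unadjusted p under 0.05 and DESeq2 called 3, 3 and 1. Of 24 genes of the H3K9 methylation machinery, 22 were tested and 0 called in each of the 4 tissues, with 9, 1, 3 and 0 at an unadjusted p under 0.05 in gastrocnemius, diaphragm, heart and liver and 0 called by DESeq2. The median log2FC of that list in liver was 0.07, beside 0.01 over all genes, and its most abundant member there, the corepressor Trim28, had a log2FC of 0.07 ± 0.09 (adjusted p = 0.969). The 10 methyl-CpG-binding domain genes gave 0 calls in every tissue (3, 0, 1 and 0 at an unadjusted p under 0.05, and 0 by DESeq2), and Mbd1, the most abundant in liver, had a log2FC of -0.18 ± 0.34 (adjusted p = 0.972).

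Of the 38 interferon-stimulated genes in the list, 0 were called in any tissue or in the joint fit, with 4 at an unadjusted p under 0.05 in gastrocnemius, 0 in diaphragm and 1 each in heart, liver and the joint fit, and with 0 called by DESeq2. The list medians were 0.01, -0.17, 0.16 and 0.04 in gastrocnemius, diaphragm, heart and liver. In diaphragm 34 of the 38 had a log2FC below 0, and in heart 29 of the 37 tested had one above 0. Bst2, the most abundant in liver, had a log2FC of -0.18 ± 0.12 (adjusted p = 0.969). Between WT muscles the list did vary. In heart against gastrocnemius, 17 of its 38 genes were called and all 17 were higher in heart, where 32.2% of all genes were called. In gastrocnemius against diaphragm 24 were called and all 24 were lower in gastrocnemius, where 26.2% of all genes were called. In heart against diaphragm 3 were called, all lower in heart, where 26.5% of all genes were called. Setdb2, Phf11c and Phf11d had the same sign as these genes in the first and second of these comparisons. Phf11b did too, but its contrasts against gastrocnemius are no test. Of the list, 35 of 38 genes passed the low-count filter in gastrocnemius alone and 38 in the joint fit. Signs against gastrocnemius of genes that entered through the other muscles are no test either. Over all genes, 3219 were called higher and 2596 lower in the first, and 1463 higher and 3272 lower in the second. In the third, Setdb2 and Phf11d had the opposite sign to the called list genes. Whether the members follow the list was not tested.

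Glucocorticoid-responsive genes had list medians below 0 in every tissue, with a median log2FC of -0.45 in liver, -0.37 in heart, -0.32 in diaphragm and -0.28 in gastrocnemius, beside medians over all genes of 0.01, -0.00158, -0.01 and 0.02. The list holds Zfp36 and Pim3, which the paper reports as differing in these livers, so its liver values are not independent of earlier results. None of the 24 was called in liver (9 at an unadjusted p under 0.05, 1 called by DESeq2), and Pck1, the gluconeogenic enzyme and the most abundant of them in liver, had a log2FC of -0.44 ± 0.12 (adjusted p = 0.969). In heart none was called either (13 at an unadjusted p under 0.05, 3 called by DESeq2), and its most abundant member, Klf9, had a log2FC of -0.19 ± 0.13 (adjusted p = 0.575). In gastrocnemius 5 of the 22 tested were called, where 6.63% of all genes were. Of these, 4 were higher, among them the metallothioneins Mt2 (2.61 ± 0.36, adjusted p = 0.000848) and Mt1 (1.53 ± 0.35, adjusted p = 0.0100) and the cell cycle inhibitor Cdkn1a (1.60 ± 0.26, adjusted p = 0.00182), and 1 was lower, the amino acid enzyme Tat, named here after its value was seen (-2.46 ± 0.58, adjusted p = 0.0108). Tat is also in the hepatocyte list, which had a median log2FC of -1.86 in gastrocnemius, with 8 of 10 genes below 0. The part of liver RNA in the Tat value was not tested.

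The remaining lists hold genes of lipid synthesis and of inflammation. Of the 14 SREBP and Insig genes of lipid synthesis control, 0 were called in any single tissue or in the joint fit. At an unadjusted p under 0.05 there were 4 in gastrocnemius, 4 in diaphragm, 3 in heart, 1 in liver and 5 in the joint fit, and DESeq2 called 1 in diaphragm and 1 in the joint fit. Scd1, the fatty acid desaturase and the most abundant of them, had a log2FC of -0.42 ± 0.82 in liver (adjusted p = 0.972). Of the 18 NF-kB chemokine and cytokine genes, 10 were tested in gastrocnemius and 4 were called, all higher, where 6.63% of all genes were called. They included the NF-kB subunit Nfkb2 (log2FC 2.01 ± 0.14, adjusted p = 4.22e-05) and the chemokine Ccl2 (4.15 ± 0.53, adjusted p = 0.000584). The chemokine Cxcl10, counted among the 4, had means of 3.69 plain CPM in Mtm1-/y and 0.0409 plain CPM in WT libraries. It passed the low-count filter through the Mtm1-/y libraries alone, so its call is no test, and no fold is given against so few WT counts. In that muscle Setdb2 had a log2FC of -0.13. The 10 macrophage markers summed to 95.5 to 123 CPM in Mtm1-/y gastrocnemius and 26.5 to 52.5 CPM in WT, so these libraries also differed in macrophage RNA, whose part in the chemokine values was not tested.

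Over the 8 group means of log2 CPM, the Setdb2 profile was compared with that of 15946 genes by Pearson's r, as a description over groups that share libraries and were partly used to choose the locus. The 5 genes most like it were Gm9856 (r = 0.986), the autophagy gene Atg16l2 (0.973), the tyrosine sulfotransferase Tpst2 (0.968), Ppp1r14a (0.963) and Rad54l2 (0.958). Each was highest in WT liver, as Setdb2 was, with Tpst2 at 41.0 CPM in WT liver and 26.7 CPM in Mtm1-/y liver. Phf11c ranked 29th (r = 0.936). The genes most like Phf11c were Pag1 (0.996), the mitochondrial protease Clpp (0.983), Zfp276 (0.977), Mup-ps21 (0.970) and Gm36070 (0.969), and Setdb2 ranked 100th. Phf11d had r = -0.20 with Setdb2 and -0.31 with Phf11c.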

How the data were processed

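RNA-seq gene counts of 30 libraries (4 tissues, Mtm1-/y and WT) were analysed. According to the authors, 50-base single-end stranded polyA libraries were trimmed with cutadapt 1.10, mapped to mm10 with STAR 2.5.3a and counted with HTSeq 0.6.1p1 in union mode on Ensembl 96; the strand option is not given in the sources used here. The deposited values are raw counts per gene. Symbols came from GENCODE M21, which matched 36103 of 36103 identifiers, and sequences from RefSeq tables (GRCm38.p6).

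Groups came from the sample labels, and p-values measure the spread between libraries. edgeR 4.0.16 quasi-likelihood tests (R 4.3.3) used TMM factors and filterByExpr (minimum count 10). Each tissue was fitted alone for the genotype effect, and 6 groups of 23 muscle libraries jointly for mean effects, interactions and WT contrasts. A call required a Benjamini-Hochberg adjusted p under 0.05 over all genes tested and an absolute log2FC over 1. SE values are the log2FC divided by the root of F. The scripts were tested on simulated data. DESeq2 1.42.0, DESeq2 size factors, no filter, summed Phf11 counts, a replicate block (for the mean muscle effect with limma 3.58.1 voom and an estimated correlation) and leaving out each library were alternatives.

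Members, lists and motifs were chosen with earlier results of these data known. The text names the members, Mtm1, the nearest neighbours, called list genes with the smallest p (up to 3) or else the most abundant, and the 5 genes most like Setdb2 and Phf11c. Other neighbours are counted only.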

Additional observations from a re-analysis of the deposited data

Results flagged for a closer look

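Within groups of 4 libraries, 4 of 29 gene and group combinations had a library whose gap to its neighbour exceeded the 95% limit of Dixon's ratio, where chance alone passes that limit in about 1 of 20 for continuous values. That share does not apply to Phf11a, whose few counts per library fix the ratio. Phf11c was highest in Mtm1-/y liver 2, at 12.4 CPM against 7.47 to 8.01 CPM in the 3 others, and that library also had the highest Setdb2 of its group (18.6 CPM). Phf11d was highest in WT gastrocnemius 3, at 3.24 CPM against 2.38 to 2.51 CPM. Phf11a was highest in Mtm1-/y heart 3, at 0.138 CPM on 4 counts, and in Mtm1-/y gastrocnemius 3, at 0.0300 CPM on 1 count where the 3 others had 0.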

How the results depend on the processing

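Across the comparisons, 64 of 72 values under alternatives that kept all libraries stayed within 1.5 times the main count, or within 1 SD of the main level. At the adjusted p alone the members passing were 2 over the 3 muscles, 3 in WT heart against diaphragm and, with Phf11b at few counts, 4 in WT gastrocnemius against diaphragm. With the 4 Phf11 genes summed to 1 feature, those WT comparisons called 0 and 1. The fold of Setdb2 in WT liver over WT heart was 3.67 with TMM and 2.44 in plain CPM. By Spearman's rho, Phf11c ranked 92nd among genes like Setdb2 and Setdb2 173rd among genes like Phf11c. Leaving out 1 library, calls ranged from 0 to 1 for the mean muscle effect, for heart minus diaphragm and for gastrocnemius minus diaphragm. The log2FC ranged from -0.10 to 0.023 for Phf11d in diaphragm and from -0.12 to 0.51 for Phf11b in heart, and the Setdb2 difference of heart minus diaphragm from -0.21 to 0.073, so each changed sign. The cause of these changes was not tested.

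Counts over all genes depend on the tool. DESeq2 called 301 genes in diaphragm, 68 in heart and 12 in liver, where edgeR called 2, 1 and 0, and for heart and gastrocnemius minus diaphragm 262 and 241 where edgeR called 45 and 74. Without the low-count filter, edgeR called 6 genes in liver and 46 for gastrocnemius minus diaphragm, and with the hepatocyte score it called 14 in diaphragm. Without Mtm1-/y diaphragm 2 edgeR called 140 in diaphragm, without WT heart 1 it called 19 in heart, and without Mtm1-/y liver 1 it called 8 in liver. Over the joint fits that each left out 1 library, calls ranged from 224 to 418 for the mean effect, 626 to 1330 for heart minus gastrocnemius, 4 to 516 for heart minus diaphragm and 33 to 276 for gastrocnemius minus diaphragm.

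Whether replicate numbers pair the samples is not settled. Same-numbered libraries of a tissue correlated from -0.67 to 0.47 in their deviations from the group means (14 pairs, 5 over 0.1). Same-numbered libraries of different muscles of a genotype correlated from -0.14 to 0.27 (22 pairs, median 0.071, 9 over 0.1). All such WT pairs were above 0 except gastrocnemius 3 with diaphragm 3 (-0.06), while Mtm1-/y pairs fell on both sides of 0. Libraries of different numbers were not compared, and the labels do not name the mouse. The joint edgeR fit took all libraries as independent. With the replicate block the members called stayed at 0 in gastrocnemius, diaphragm and heart and at 0 in the 3 tests between muscles, and calls over all genes were 996, 0 and 1 in those tissues, and 11 for heart minus diaphragm. It changed no other call of a member. For the mean effect over muscles, genotype is fixed within each such set, so the planned block of genotype and number was not run. The replicate block with an estimated correlation, added after the data had been seen, called 0 members and 214 genes. By the adjusted p alone it kept Setdb2 (0.0215) and not Phf11c (0.0885). Depth limits Phf11a, at 8 counts or fewer per library, and Phf11b, at 32 or fewer.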
